A study of Homo sapiens with 10 samples.

Results

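The genes described here are 60 protein-coding genes on the long arm of chromosome 20, out of 19590 genes in the table of the series. They were chosen by position and by measured values, namely by how their IRF8 knockout (KO) to control log2 ratios spread around -1. They were meant to include genes whose RNA was nearly level between the groups, subunits of complexes, and genes of a segment of this arm that is often deleted in myeloid disease. All 60 passed the filter on low values (mean normalized count of 10 or more over all 8 libraries), as did 13110 genes in all. Since these ratios chose the genes, they are given as a description without a test. The remaining tested genes comprised 178 on the same arm, 113 on the short arm and 12641 on other chromosomes.

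RNA-Seq was performed on MV4-11 cells, an established line of human acute myeloid leukemia (AML) cells of monocytic type, to ask how IRF8, a transcription factor of myeloid and B cells, influences their gene expression. The 4 control samples came, per the study's methods, from cells infected with the control vector. The labels call them only control, and the table heads their columns WT. The 4 IRF8 KO samples came from cells in which a lentiviral CRISPR/Cas9 vector had targeted IRF8, selected with puromycin and grown as clones by limiting dilution. The labels do not say which clone or guide RNA each KO sample came from, whether the samples of a group were separate cultures, or what a shared replicate number marks, so that the spread between samples may be technical in part and clonal differences cannot be told apart from the knockout.

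Loss of part of the long arm of chromosome 20 is a recurrent change in myelodysplastic and myeloproliferative disease and in AML. In cells with fewer copies of a chromosome, the RNA of its genes usually falls about in proportion. Genes whose RNA falls by less are called buffered. Many proteins of this arm act in complexes with proteins encoded elsewhere, among them the proteasome, the spliceosome and the enzyme that attaches GPI anchors to proteins. The number of DNA copies was not analysed here.

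Reads assigned to genes numbered 48762519 to 65519047 in the control and 39560072 to 54048461 in the IRF8 KO libraries. IRF8 itself had 36891, 15192, 43016 and 22535 normalized counts (reads divided by one factor per library) in control replicates 1 to 4 and 6377, 2401, 12903 and 7819.7 in IRF8 KO replicates 1 to 4. The groups did not overlap, and the mean fell to 25.1% of the control, a log2 difference of -2.11 (standard error 0.51). By limma with Benjamini-Hochberg adjustment the adjusted p was 0.022. It rose above 0.05, up to 0.0586, when control replicate 1, control replicate 3 or IRF8 KO replicate 1 was left out. The call held in 14 of 17 alternative fits. These are RNA values, and the study reported from Western blots that its knockout clones lacked IRF8 protein. All 9 markers listed for monocytic leukemia, among them FLT3, CD33 and SPI1, had a mean of at least 10, with summed levels of 83242 to 98049.8 in the control and 105782 to 342807 in the IRF8 KO libraries. The higher sums lay in LYZ, with 12725, 1734, 14757 and 2629.7 in the control and 248604, 13767, 39385 and 32984 in the IRF8 KO libraries (limma adjusted p = 0.06), and in MPO, with a log2 difference of 4.08 (standard error 0.20) (limma adjusted p = 9.9e-06). PTPRC also rose (1.34, limma adjusted p = 0.025) and MEIS1 fell (-0.56, limma adjusted p = 0.029), while FLT3 (-0.21), CD33 (-0.34), CSF1R (-0.27), HOXA9 (-0.36) and SPI1 (0.29) did not pass the test. Of the 21 markers of T, B, erythroid, megakaryocytic, fibroblast and epithelial cells, 5 had a mean of at least 10, of which ITGA2B was the most abundant, and the erythroid HBB and AHSP were at 0 in every library. Control replicates 1 and 3 were both above or both below replicates 2 and 4 in 47 of the 60 chromosome 20 genes and in 81.2% of all tested genes, so values are given by replicate number. The part of these differences between libraries in the results was not tested.

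The 60 genes were lower in the IRF8 KO libraries by a median log2 difference of -0.85, with an interquartile range from -1.05 to -0.67. In percent of the control mean, the IRF8 KO means ran from 20.2% to 101%, with a median of 55.4%. In bulk samples, fewer cells with a transcript and less of it per cell cannot be told apart. Within replicates 1 and 3 the median was -0.87, and within replicates 2 and 4 -0.82, a split made after the data were seen, in libraries that all entered the choice of the genes. Taken library by library against the mean of the controls, the median was -0.84, -0.86, -0.85 and -0.93 in IRF8 KO replicates 1 to 4, and between -0.05 and 0.06 in the control libraries. Together the 60 genes took 0.713% to 0.73% of all counts in the control and 0.386% to 0.406% in the IRF8 KO libraries.

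The standard deviation of the log2 differences over the 60 genes was 0.42, and the median standard error of a gene was 0.16. Within 0.25 of the median lay 36 genes, while 4 lay below -1.5, 6 lay above -0.5, and 1, ERGIC3, lay above 0. With the cutoffs that the study used (2-fold or more, p below 0.01 before adjustment), 19 were called lower, where 6.12% of all tested genes were. At an adjusted p below 0.05 from limma, 46 were called lower against 9.56% of all tested genes, and 0 were called higher against 8.65%. In 46 genes every IRF8 KO value lay below every control value, which held for 13.0% of all tested genes. The same contrast chose the genes, so nothing is read from these counts.

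The other 178 tested genes of the long arm had a median log2 difference of -0.93 and those of the short arm -0.94, against 0.01 on the other chromosomes. The other long arm genes were more widely spread, with an interquartile range of 0.70 against 0.38 in the 60 genes. Among the 131 of them with a control mean of at least 223 normalized counts, the lowest among the 60, it was 0.49. The 60 genes were chosen by how these same ratios spread, so nothing is read from their narrower range. Medians by autosome other than chromosome 20 ran from -0.33 to 0.22.

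**Figure D1:**
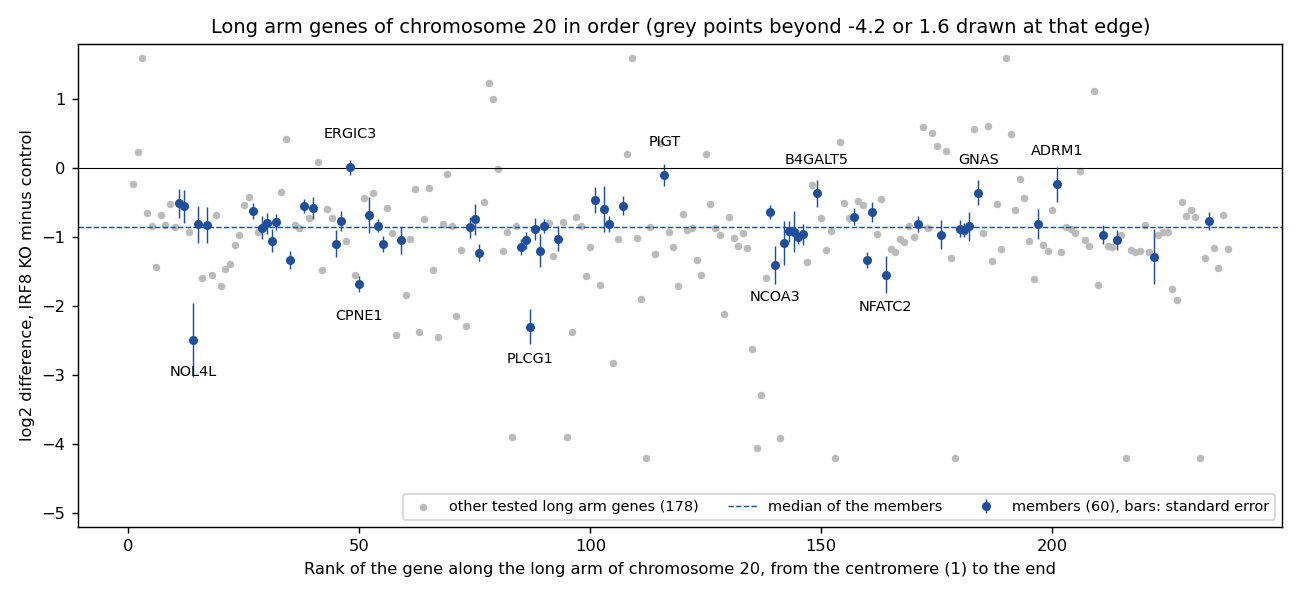
Log2 difference (IRF8 KO minus control, vertical axis) of the 238 tested long arm genes against their rank from the centromere; blue points are the 60 chosen genes with standard errors, grey points the other 178. The blue points lie around the dashed median of -0.85 along the whole arm, with NOL4L and PLCG1 far below it and ERGIC3 at 0.01.

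**Figure D2:**
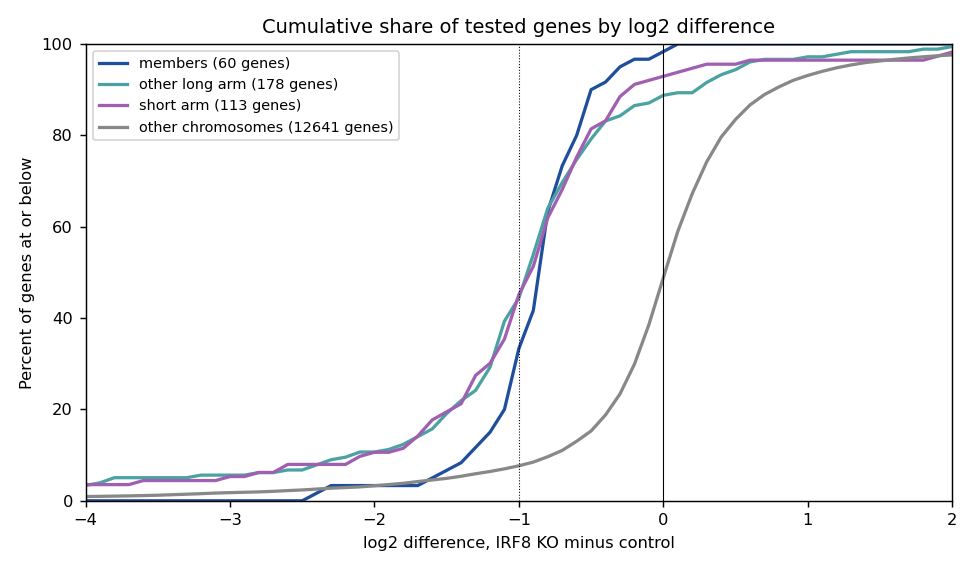
Cumulative share of tested genes (percent, vertical axis) at or below each log2 difference (horizontal axis) for 4 sets of genes. The curves of the 60 genes, the other long arm genes and the short arm genes rise around their medians of -0.85, -0.93 and -0.94, and that of the other chromosomes around 0.01.

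NOL4L, a nuclear protein known as a fusion partner in leukemia, had the lowest log2 difference of the 60. Its normalized counts ran 1234, 3077, 1268 and 2607 in control replicates 1 to 4 and 839, 451, 175 and 191 in IRF8 KO replicates 1 to 4. The groups did not overlap, although the lowest control values (replicates 1 and 3) came within reach of IRF8 KO replicate 1, and the log2 difference was -2.49 (standard error 0.54), the largest standard error among the 60. PLCG1 encodes phospholipase C gamma, which couples receptor tyrosine kinases to calcium and protein kinase C signaling. Controls had 1019, 673, 1055 and 636 normalized counts of PLCG1, against 163, 153, 238 and 129 in the IRF8 KO libraries. All IRF8 KO values lay far below the lowest control value, and the mean stood at 20.2% of the control, a log2 difference of -2.30 (standard error 0.26).

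CPNE1 encodes copine, a calcium-dependent phospholipid-binding protein. CPNE1 was measured at 6398, 6379, 6293 and 5855 normalized counts in the control and 1905, 1735, 2252 and 1907 in the IRF8 KO libraries. Both groups were tight and far apart, with a log2 difference of -1.68 (standard error 0.11). CPNE1 overlaps RBM12 in the annotation, so reads of the pair may not be fully separated. NFATC2 is a transcription factor that calcineurin activates after a calcium signal. For NFATC2, normalized counts were 731, 738, 704 and 785 in the control and 148, 368, 245 and 305 in the IRF8 KO libraries. The control values were nearly equal and the IRF8 KO values differed among themselves, with replicate 1 lowest, and the log2 difference was -1.54 (standard error 0.26). NCOA3 is a coactivator of nuclear hormone receptors. In NCOA3, the control libraries held 2392, 3860.0, 2475 and 4015 normalized counts and the IRF8 KO libraries 1105, 1596, 758 and 1402. The groups did not overlap and the log2 difference was -1.40 (standard error 0.27).

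At the other end, ERGIC3, a cargo receptor that cycles between the endoplasmic reticulum and the Golgi, was level between the groups. Its normalized counts ran 5767, 5811, 5712 and 5334 in control replicates 1 to 4 and 6608, 5524, 5723 and 5039 in IRF8 KO replicates 1 to 4. The IRF8 KO values lay on both sides of the control values, and the log2 difference was 0.01 (standard error 0.11). PIGT is a subunit of the GPI transamidase, which attaches GPI anchors to proteins. Controls had 3624, 2962, 3413 and 3055 normalized counts of PIGT, against 3058, 4053, 2509 and 2736 in the IRF8 KO libraries. The groups overlapped, with the highest value of all in IRF8 KO replicate 2, and the log2 difference was -0.10 (standard error 0.16). ADRM1 encodes the ubiquitin receptor RPN13 of the proteasome. ADRM1 was measured at 7608, 4819, 7595 and 5324 normalized counts in the control and 5469.9, 4100.5, 8164 and 4251 in the IRF8 KO libraries. IRF8 KO replicate 3 was above every control library and the other IRF8 KO libraries were not, and the log2 difference was -0.23 (standard error 0.25).

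GNAS encodes the G protein subunit that stimulates adenylyl cyclase. For GNAS, normalized counts were 15393, 26626, 15958 and 23328 in the control and 15128, 15996, 14742 and 16004 in the IRF8 KO libraries. The IRF8 KO values were close together, near the level of control replicates 1 and 3 and below that of replicates 2 and 4, and the log2 difference was -0.35 (standard error 0.19). B4GALT5 encodes a galactosyltransferase that makes lactosylceramide. In B4GALT5, the control libraries held 4418, 3151, 4348 and 3886 normalized counts and the IRF8 KO libraries 4160.3, 2294, 2922 and 3080.1. IRF8 KO replicate 1 lay among the control values, and the log2 difference was -0.36 (standard error 0.19).

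**Figure D3:**
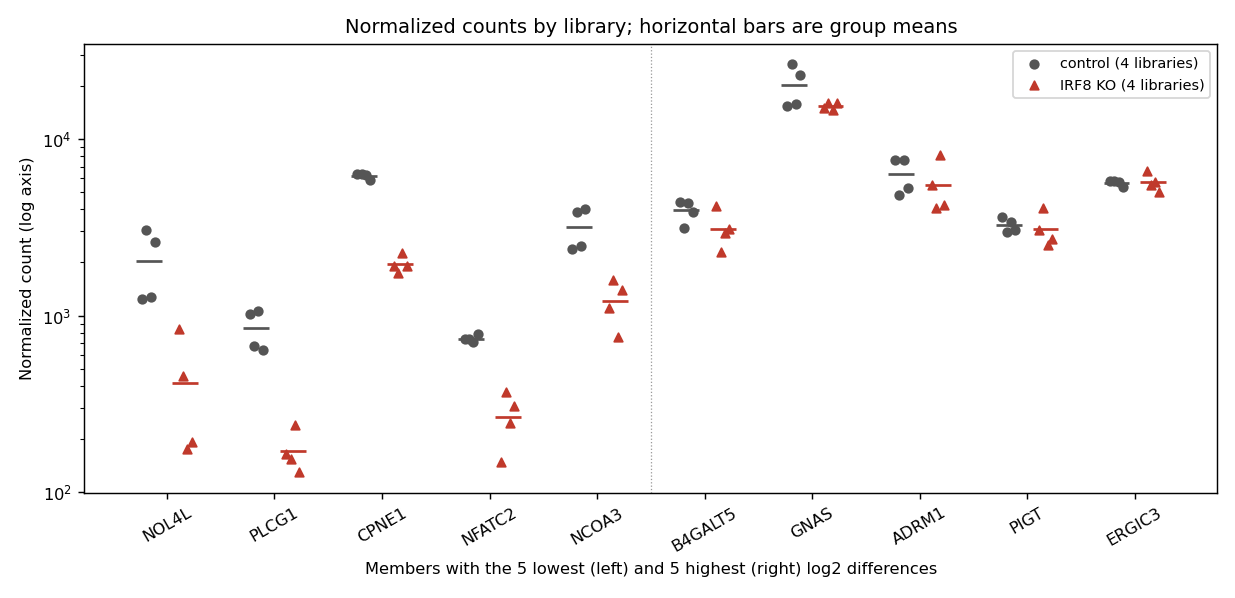
Normalized counts (log axis) of the 5 genes with the lowest and the 5 with the highest log2 differences; each point is 1 library, grey for control and red for IRF8 KO, and bars are group means. The groups are apart in NOL4L, PLCG1, CPNE1, NFATC2 and NCOA3 and overlap in B4GALT5, GNAS, ADRM1, PIGT and ERGIC3.

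Neighbors on the arm could differ widely. Between consecutive genes of the 60, the median step was 0.32 on the log2 scale over 59 pairs. From ERGIC3 to CPNE1, with 1 tested gene between them, the step was -1.69, and by IRF8 KO library it ran from -1.93 to -1.48. From TOP1 (-1.05) to PLCG1, with no tested gene between, it was -1.25, and from PLCG1 to ZHX3 (-0.88) it was 1.42. From KIF3B (-0.55) to NOL4L the step was -1.93, and from NOL4L to COMMD7 (-0.81) 1.67. The stretch of the 20 genes nearest the centromere had a median of -0.81, the middle 20 -0.90 and the 20 nearest the end of the arm -0.88.

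Promoter sequences, from 250 bases before to 50 bases after a transcription start, were taken from RefSeq (GRCh38.p14) for 54 of the 60 genes, with 73 starts. EIF2S2, NCOA6, GSS, RBM39, CHD6 and PSMA7 were not matched. The promoters of a gene with an interferon response type element (EIF6), of a gene from the low end (CPNE1) and of the pair of genes nearest to 0 (ERGIC3, PIGT) are shown. Capitals mark the letters GAAANNGAAA or CCGGAAGT in EIF6, CCGGAAGT in CPNE1 and CCAAT in ERGIC3 and PIGT, on either strand.
EIF6, chr20:35284668-35284967, minus strand: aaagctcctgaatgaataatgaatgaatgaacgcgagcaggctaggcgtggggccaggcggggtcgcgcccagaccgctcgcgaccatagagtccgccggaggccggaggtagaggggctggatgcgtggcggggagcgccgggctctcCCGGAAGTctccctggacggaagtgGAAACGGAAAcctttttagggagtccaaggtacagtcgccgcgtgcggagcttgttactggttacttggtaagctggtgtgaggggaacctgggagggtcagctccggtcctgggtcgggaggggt
CPNE1, chr20:35664851-35665150, minus strand: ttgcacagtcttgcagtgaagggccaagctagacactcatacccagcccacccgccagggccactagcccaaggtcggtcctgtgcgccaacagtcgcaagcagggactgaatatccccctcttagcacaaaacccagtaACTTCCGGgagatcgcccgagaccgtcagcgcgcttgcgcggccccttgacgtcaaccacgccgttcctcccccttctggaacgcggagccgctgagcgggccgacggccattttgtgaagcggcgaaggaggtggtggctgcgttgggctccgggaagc
ERGIC3, chr20:35541828-35542127, plus strand: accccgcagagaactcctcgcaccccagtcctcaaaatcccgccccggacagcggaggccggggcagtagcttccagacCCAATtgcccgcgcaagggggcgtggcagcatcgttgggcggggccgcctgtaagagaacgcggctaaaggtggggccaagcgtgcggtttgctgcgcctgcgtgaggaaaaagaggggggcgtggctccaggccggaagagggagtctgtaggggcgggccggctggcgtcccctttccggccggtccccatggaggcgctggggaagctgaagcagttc
PIGT, chr20:45415891-45416190, plus strand: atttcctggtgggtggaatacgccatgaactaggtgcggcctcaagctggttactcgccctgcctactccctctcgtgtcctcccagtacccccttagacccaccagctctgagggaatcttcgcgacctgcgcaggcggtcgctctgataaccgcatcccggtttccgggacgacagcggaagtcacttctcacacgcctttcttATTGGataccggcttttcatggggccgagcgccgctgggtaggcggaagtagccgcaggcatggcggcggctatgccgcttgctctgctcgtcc

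Searched on both strands, GAAANNGAAA, the core of the interferon-stimulated response element that IRF proteins bind, was present at 2 of the 73 starts, both of EIF6, and at 3.57% of all 35116 starts in the collection. GGAANNGAAA, a composite of the ETS and IRF elements, which cannot overlap GAAANNGAAA at the same letters, was present at 0 of the starts and at 2.82% of all. CCGGAAGT, an ETS element that shares GGAA with the composite, was present at 11 starts, those of EIF6, CPNE1, NFS1, AAR2, TTI1, STAU1, DDX27, CSTF1, RTEL1 and PRPF6, and at 4.14% of all. The CCAAT letters were present at 17 starts and at 34.6% of all. The starts had a median of 29 CpG dinucleotides in 300 bases, against 24 at the 15044 starts of the other tested genes and 28 at those of the other tested genes of chromosome 20. These matches describe letters in the window and not binding. The 35116 starts include genes that were not tested, unlike the 15044, so the motif shares have no like-for-like background.

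By role, the 4 genes of translation and mRNA fate had a median log2 difference of -1.02 and lay close together. EIF6 keeps the large ribosomal subunit from joining the small one too early. Its normalized counts ran 7471, 5447, 7579 and 5004 in control replicates 1 to 4 and 2762, 2457, 3896 and 2801 in IRF8 KO replicates 1 to 4. The groups did not overlap, and the log2 difference was -1.10 (standard error 0.19). The others were YTHDF1 (-1.04), a reader of methylated mRNA, STAU1 (at 49.9% of the control mean), which binds double-stranded RNA, and EIF2S2 (-0.86), the beta subunit of the initiation factor eIF2.

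The 9 genes of splicing and RNA processing ran from -1.22 to -0.76, with no overlap between the groups in any of them. That held for 46 of all 60 genes and for 13.0% of all tested genes. The same contrast chose the 60 genes, so nothing is read from such counts by role. SRSF6, a serine and arginine rich splicing factor, had the highest control level per kilobase of genomic span among the 9. Counts of SRSF6 were 17100.4, 17109.7, 16818 and 15159 after normalization in the controls and 10387, 8656, 9106 and 8836 in the IRF8 KO libraries. All IRF8 KO values lay below the lowest control value, and the log2 difference was -0.84 (standard error 0.11). CSTF1 is a subunit of the factor that cleaves pre-mRNA before the poly(A) tail is added. CSTF1 was measured at 2267, 1887, 2287 and 1924 normalized counts in the control and 1187, 1226, 1178 and 1150.0 in the IRF8 KO libraries. Its groups were narrow and apart, with a log2 difference of -0.81 (standard error 0.11). The others were RPRD1B (-1.22), which binds the tail of RNA polymerase II, the helicases DHX35 (-1.14) and DDX27 (-0.96), AAR2 (-1.04), PRPF6 (-0.76) and CTNNBL1 (-0.85), proteins of the spliceosome or its assembly, and the splicing factor RBM39 (-0.83).

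Nuclear transport was represented by CSE1L, which returns importin alpha to the cytoplasm, and RAE1 (-0.97), a protein of the nuclear pore. For CSE1L, normalized counts were 24994, 10452, 25798 and 13673 in the control and 10264, 7626, 10697 and 8467 in the IRF8 KO libraries. Control replicate 2 lay below IRF8 KO replicate 3, so the groups overlapped, and the log2 difference was -0.92 (standard error 0.30). RAE1 overlaps MTRNR2L3 in the annotation. Of the genes of DNA topology and genome maintenance, TOP1, the topoisomerase that relaxes DNA by cutting a single strand, had the highest control level per kilobase of span. In TOP1, the control libraries held 21845, 16169.5, 21922 and 19366 normalized counts and the IRF8 KO libraries 9000.4, 10012, 9084 and 10062. All values of TOP1 in the IRF8 KO libraries were below the controls, and the log2 difference was -1.05 (standard error 0.13). The helicase gene RTEL1 had the lowest control mean of the 60, 223 ± 90.7 normalized counts (SD, n = 4), with a log2 difference of -1.28 (standard error 0.40), and overlaps the readthrough gene RTEL1-TNFRSF6B. TTI1, which stabilizes kinases of the DNA damage response, stood at -0.74.

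The 9 genes of chromatin and transcription had the lowest median of the role groups, -1.20. Control and IRF8 KO values did not overlap in any of them, beside 13.0% of all tested genes. ADNP, which acts with CHD4 and HP1 proteins in the ChAHP complex, had the highest control level per kilobase of span. Its normalized counts ran 11667, 11356, 12257 and 10176 in control replicates 1 to 4 and 4382, 5049, 4037 and 4683 in IRF8 KO replicates 1 to 4. The IRF8 KO mean was 39.9% of the control, a log2 difference of -1.33 (standard error 0.11). PHF20 reads methylated histones in the NSL acetyltransferase complex. Counts of PHF20 were 3881, 3750.4, 3640.5 and 3713 after normalization in the controls and 1817, 1993, 1519 and 1688 in the IRF8 KO libraries. Its control values were nearly equal, and the log2 difference was -1.10 (standard error 0.11). Beside NOL4L and NCOA3, the others were NCOA6 (-1.33), a coactivator of the MLL3 and MLL4 complexes, the remodeler CHD6 (-1.20), DIDO1 (-0.96) and ZMYND8 (-0.64), which bind histone marks, and the zinc finger homeobox gene ZHX3 (-0.88).

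Signaling genes ran from PLCG1 (-2.30) to GNAS (-0.35). YWHAB, an adaptor that binds phosphorylated serine and threonine, had the highest control level per kilobase of span. YWHAB was measured at 25032, 21861, 26008 and 22459 normalized counts in the control and 15734, 13239, 12227 and 13408 in the IRF8 KO libraries. The groups were apart, with a log2 difference of -0.81 (standard error 0.12). The others beside NFATC2 were PREX1 (-1.09), an exchange factor for Rac, COMMD7 (-0.81), the phosphatase PTPN1 (-0.70) and STK4 (-0.54), the MST1 kinase of the Hippo pathway. Of the 8 signaling genes, the groups did not overlap in 5, beside 13.0% of all tested genes.

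The 12 genes of cytoskeleton and membrane traffic held both CPNE1 and ERGIC3. DYNLRB1, a light chain of cytoplasmic dynein, and CHMP4B, the main filament subunit of ESCRT-III, were narrow within groups. For DYNLRB1, normalized counts were 3166, 2984, 3041 and 3022 in the control and 1579, 1736, 2022 and 1795 in the IRF8 KO libraries. In CHMP4B, the control libraries held 3876, 3681, 3821 and 3476 normalized counts and the IRF8 KO libraries 2528, 2424, 2748 and 2016. In both genes every IRF8 KO value was below the controls, with log2 differences of -0.78 (standard error 0.11) and -0.62 (standard error 0.12). RAB22A (-0.88), a small GTPase of endosomes, VAPB (-0.89), a tether of the endoplasmic reticulum, STX16 (-0.84), a syntaxin of the Golgi, and ARFGEF2 (-0.92), an exchange factor for ARF proteins, lay near the median of all 60. STX16 overlaps the readthrough gene STX16-NPEPL1.

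The 4 genes of glycosylation and GPI anchors had a median of -0.44. The groups did not overlap in 1 of them, beside 13.0% of all tested genes. It was DPM1 (-0.64), the catalytic subunit that makes dolichol-phosphate mannose. The 5 genes of metabolism and mitochondria had a median of -0.68. AHCY, which hydrolyses S-adenosylhomocysteine, had the highest control level per kilobase of span among them. AHCY had 17022, 11859, 16258 and 12699 normalized counts in control replicates 1 to 4 and 7555, 7888, 9776 and 7829 in the IRF8 KO replicates. The groups did not overlap, and the log2 difference was -0.80 (standard error 0.15), in a span that overlaps that of ASIP. NFS1 is the cysteine desulfurase that supplies sulfur for iron-sulfur clusters. Counts of NFS1 were 1559.8, 907, 1451 and 885 after normalization in the controls and 817, 566, 984 and 601 in the IRF8 KO libraries. Its groups overlapped, since control replicates 2 and 4 were below IRF8 KO replicate 3, and the log2 difference was -0.68 (standard error 0.26). UQCC1 (-0.77) assembles respiratory complex III and GSS (-0.55) makes glutathione, the latter in a span that overlaps MYH7B as does that of TRPC4AP.

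The 4 genes of proteasome and ubiquitin differed among themselves. PSMA7 is an alpha subunit of the proteasome core. PSMA7 was measured at 15602, 10246, 16043 and 10893 normalized counts in the control and 7438, 6077, 10205 and 6461 in the IRF8 KO libraries. The highest IRF8 KO value (replicate 3) lay just under the lowest control value (replicate 2), and the log2 difference was -0.81 (standard error 0.21). The ubiquitin ligase ITCH stood at -1.05, TRPC4AP, an adaptor of a ubiquitin ligase, at -0.57 and ADRM1 at -0.23.

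The genes nearest the centromere differed between the IRF8 KO libraries. In each of the first 5 genes from the centromere, POFUT1, KIF3B, NOL4L, COMMD7 and MAPRE1, IRF8 KO replicate 1 had the highest value of the 4, which held for 13 of the other 55. The stretch was singled out after the values were seen and is not tested. For MAPRE1, normalized counts were 15570.3, 10791, 16099.7 and 11143 in the control and 12218, 7339, 6512 and 5201 in the IRF8 KO libraries. MAPRE1, which tracks the growing ends of microtubules, was thus within the control range in IRF8 KO replicate 1 and below it in the other libraries, and its log2 difference was -0.83 (standard error 0.26). In KIF3B, the control libraries held 1819.7, 1272, 1731 and 1289.9 normalized counts and the IRF8 KO libraries 1642, 902, 833 and 901. In KIF3B, a motor subunit of kinesin-2, the pattern was the same, and the log2 difference was -0.55 (standard error 0.24). COMMD7, a member of the COMMD family, and POFUT1, which adds fucose to Notch receptors, also lay within the control range in that library. COMMD7 had 1323, 1972, 1244 and 1788 normalized counts in control replicates 1 to 4 and 1297, 1030.4, 777 and 582 in the IRF8 KO replicates. Counts of POFUT1 were 5608, 5917, 5336 and 6059.8 after normalization in the controls and 5686, 4445, 2664 and 3852 in the IRF8 KO libraries. In COMMD7 IRF8 KO replicate 4 was the lowest, and in POFUT1 replicate 3.

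Relative to the control mean, the median of these 5 genes was -0.11, -0.74, -1.02 and -1.34 in IRF8 KO replicates 1 to 4, where that of the other 55 was -0.86, -0.87, -0.82 and -0.90. The 10 other long arm genes up to MAPRE1 with at least the control level of RTEL1 had medians of -0.33, -0.59, -1.08 and -0.85, and the 121 beyond it -1.03, -0.97, -0.92 and -1.07. CHMP4B, the next of the 60 after MAPRE1, stood at -0.55, -0.61, -0.43 and -0.88. Of the first 5 genes, NOL4L alone was below the control range in IRF8 KO replicate 1.

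**Figure D4:**
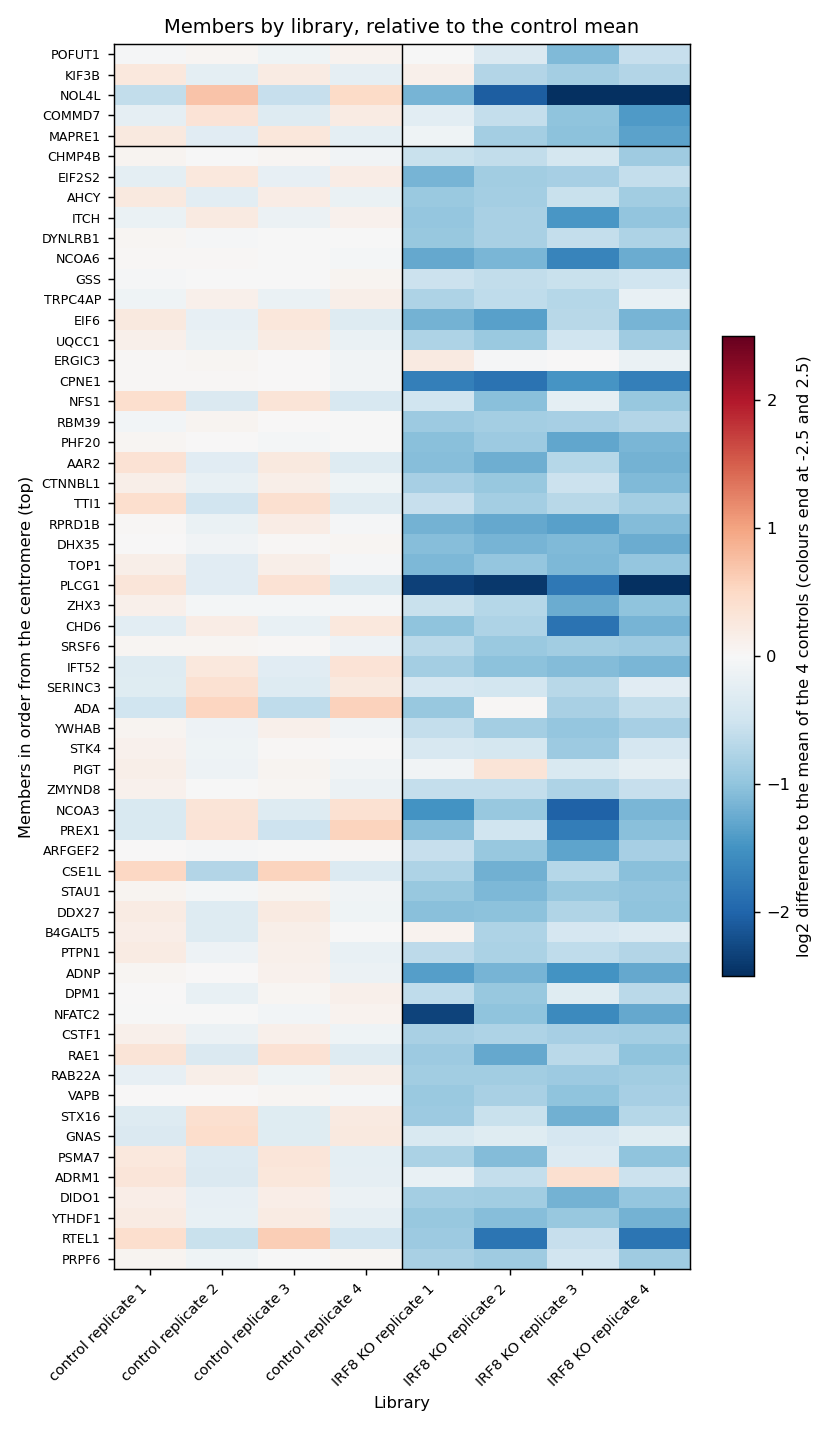
Log2 difference of each of the 60 genes (rows, in order from the centromere) in each of the 8 libraries (columns) to the mean of the 4 controls, blue for lower and red for higher. Above the horizontal line, POFUT1, KIF3B, COMMD7 and MAPRE1 are pale in IRF8 KO replicate 1 and blue in IRF8 KO replicate 3, while most rows below the line are blue in all 4 IRF8 KO libraries.

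By pairs of the same replicate number, which share no library, the median log2 ratio of the 60 genes was -0.87, -0.78, -0.96 and -0.83, and 56 genes were below 0 in all 4 pairs. Across these genes the ratios of any pair correlated with those of another at Pearson's r between 0.34 and 0.86 and Spearman's rho between 0.39 and 0.74 (n = 60 genes, which are not independent). The ratios of these same libraries chose the genes, so nothing is read from the signs or the correlations. The replicate term of a limma fit with group and replicate number, which the choice of genes did not use, passed an adjusted p of 0.05 in 0 of the 60 genes, where 4.94% of all tested genes did. At an unadjusted p below 0.05 it was 15 genes, against 26.8% of all. Within the control group, the median standard deviation of the log2 values was 0.19 in the 60 genes and 0.28 in all tested genes.

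The log2 difference varied little with level. Across the 60 genes, Spearman's rho with the control mean was 0.19, and with the genomic span, introns included, -0.32. Over the 178 other long arm genes rho with span was -0.06, and over genes of other chromosomes -0.02. The same ratios chose the 60 genes, so no tendency with span is read from their rho. These are descriptions across genes of the same libraries.

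The segment from SRSF6 to ADA, within the region often deleted in myeloid disease, held 4 of the 60 genes. SRSF6 is given above. IFT52 is a core subunit of intraflagellar transport. IFT52 was measured at 1347, 2005, 1385 and 2121 normalized counts in the control and 937, 829, 795 and 756 in the IRF8 KO libraries. The groups were apart and the log2 difference was -1.02 (standard error 0.18). SERINC3 is a membrane protein of the serine incorporator family. For SERINC3, normalized counts were 6305, 10111, 6249 and 9254 in the control and 5846, 5681, 4830.4 and 6372 in the IRF8 KO libraries. IRF8 KO replicate 4 lay among the lower control values, and the log2 difference was -0.46 (standard error 0.19). ADA encodes adenosine deaminase. In ADA, the control libraries held 1415, 2910.3, 1289.7 and 2963 normalized counts and the IRF8 KO libraries 1032, 2035, 1131 and 1294. Control replicates 2 and 4 were far above replicates 1 and 3, IRF8 KO replicate 2 lay between them, and the log2 difference was -0.59 (standard error 0.34).

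Of the 10 other genes of the segment that could be tested, 5 fell at an adjusted p below 0.05 by limma and 0 rose, with a median log2 difference of -1.21. Of all tested genes 9.56% were called lower, and of the 178 other long arm genes, which include these 10, 55.1% were, with the median of -0.93 given above. TOX2, a transcription factor of the HMG box family, fell furthest (-3.89 (standard error 0.84), adjusted p = 0.013). TOX2 had 492, 2175, 465 and 1755 normalized counts in control replicates 1 to 4 and 16, 231, 42 and 105 in the IRF8 KO replicates. FITM2, which acts in lipid droplet formation, fell by a narrower margin between groups (-1.57 (standard error 0.19), adjusted p = 8.9e-04). The others were PKIG (-1.70, adjusted p = 0.048), an inhibitor of protein kinase A, TTPAL (-1.14, adjusted p = 4.5e-04) and OSER1 (-0.71, adjusted p = 0.0047). L3MBTL1, a reader of methylated histones, stood at -0.80 (adjusted p = 0.15) and MYBL2, a cell cycle transcription factor, at -0.78 (adjusted p = 0.16), neither past the threshold. JPH2 (-2.37), SGK2 (-1.28) and GDAP1L1 (-0.84) did not pass it either.

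For 22 of the genes, partners in the same complex or module that are encoded on other chromosomes were listed, 125 in all, and all were tested. By limma 2 (1.6%) fell and 10 (8%) rose at an adjusted p below 0.05, beside 9.56% and 8.65% of all tested genes, and their median log2 difference was 0.08. In this main fit neither share was above that of all tested genes, so the partners below are named as single calls. With the replicate number as a block, 4 partners fell and 19 rose, and with DESeq2 5 fell and 14 rose. The shares of all tested genes in those fits are not given here. Those counts thus have no matching background, and nothing is read from them. In 21 of the 22 complexes the chromosome 20 gene lay below the median of its partners, a direction that its choice as a gene with a low ratio largely fixes.

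Of the 3 partners of PIGT in the GPI transamidase that are encoded on other chromosomes, PIGS and PIGK rose. PIGS had 3647, 3392, 3416 and 3674 normalized counts in the control and 7712, 6082, 5945 and 6135 in the IRF8 KO libraries, and rose in all 4 (0.87 (standard error 0.12), limma adjusted p = 0.0015). PIGK, the catalytic subunit, had 1411, 1658, 1376 and 1700.4 in the control and 2928, 3219, 1927 and 2677 in the IRF8 KO libraries (0.79 (standard error 0.17), limma adjusted p = 0.014). Both calls held in all 17 alternative fits. PIGT itself was at -0.10. Relative to the median of these 3 partners, it lay between -0.15 and 0.12 of the control mean in the control libraries. In the IRF8 KO libraries it lay between -1.22 and -0.47. The ratio of PIGT was known when it was chosen, so nothing is read from these ranges. GPAA1, the other of these partners, stood at 0.07. PIGU, a further subunit that is itself encoded on chromosome 20, stood at -0.34 (limma adjusted p = 0.3).

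Elsewhere, single partners rose. CSTF3, the scaffold of the cleavage stimulation factor with CSTF1, had 4453, 4245, 4701 and 4826 normalized counts in the control and 7639.6, 6683, 8307 and 7246 in the IRF8 KO libraries (0.71 (standard error 0.11), limma adjusted p = 0.0028). DYNLT3, a dynein light chain, had 697, 1139, 700.2 and 1076 in the control and 1740.2, 1948, 1639 and 1921 in the IRF8 KO libraries (1.04 (standard error 0.19), limma adjusted p = 0.0065). ISCU, the scaffold on which NFS1 builds iron-sulfur clusters, had 2837, 2839.6, 2757 and 2642 in the control and 4388, 4005, 5549 and 3926 in the IRF8 KO libraries (0.68 (standard error 0.13), limma adjusted p = 0.0079). In these 3 genes the groups did not overlap and the call held in every alternative fit.

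The remaining rises were smaller, and each was lost when some single libraries were left out. KAT8, the acetyltransferase of the NSL complex with PHF20, had 1418, 1378, 1353 and 1526 normalized counts in the control and 2016, 1957, 2467 and 1823 in the IRF8 KO libraries (0.53, limma adjusted p = 0.018, up to 0.056 without control replicate 1 or 3). CHMP2A of ESCRT-III had 2401, 2231, 2451 and 2945 and 4029, 3067, 4072 and 3359 (0.53, limma adjusted p = 0.03, up to 0.0819 with 1 library left out). Of the Commander complex, which sorts receptors at endosomes and holds COMMD7, COMMD1 had 729, 558, 709.8 and 596 and 1094, 899, 1108 and 782 (0.58, limma adjusted p = 0.041, up to 0.104). CCDC93 of the same complex had 1969, 2148, 1974 and 2281 and 3879, 2783, 2551 and 3144 (0.55, limma adjusted p = 0.032, up to 0.0865), and COMMD6 had 1915, 2458, 1835 and 2330.3 and 3059, 3094, 3167 and 2471 (0.47, limma adjusted p = 0.049996, up to 0.128).

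The partners that fell were IFT81 and KIF3C. IFT81, which binds tubulin in the same transport complex as IFT52, had 779.5, 936, 808 and 928 normalized counts in the control and 324, 618, 436 and 561 in the IRF8 KO libraries (-0.87 (standard error 0.21), limma adjusted p = 0.022). The call was lost without control replicate 2, control replicate 4 or IRF8 KO replicate 3, with adjusted p up to 0.0609. KIF3C, which can take the place of KIF3B in kinesin-2, had 834, 862, 878 and 854 in the control and 499, 696, 454 and 397 in the IRF8 KO libraries (-0.78 (standard error 0.18), limma adjusted p = 0.018). Its groups did not overlap. IFT27, of the same list as IFT81, stood at 0.31 (limma adjusted p = 0.12).

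No proteasome partner passed the threshold, but their values lay on one side. All 13 partners of PSMA7 in the core had a log2 difference above 0 (from 0.11 to 0.74), and so had all 18 partners of ADRM1 in the cap (from 0.02 to 0.47). Of the tested genes on other chromosomes, 48.8% lay at or below 0. The partners were measured in the same libraries and are not independent, so these counts are a description. Relative to the median of these partners, PSMA7 lay between -0.03 and 0.06 of the control mean in the control libraries and between -1.42 and -1.11 in the IRF8 KO libraries. For ADRM1 the IRF8 KO libraries lay between -0.76 and -0.25, below its control range of -0.06 to 0.06, although its own groups overlapped. In ADRM1 the KO libraries thus stood apart from the controls only on the scale of the partners. The ratios of PSMA7 and ADRM1 were known when they were chosen, which largely fixes their side of the partners. Nothing is read from these ranges. The partners of PRPF6 in the tri-snRNP lay between -0.29 and 0.17 and those of NCOA6 between -0.37 and 0.25.

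**Figure D5:**
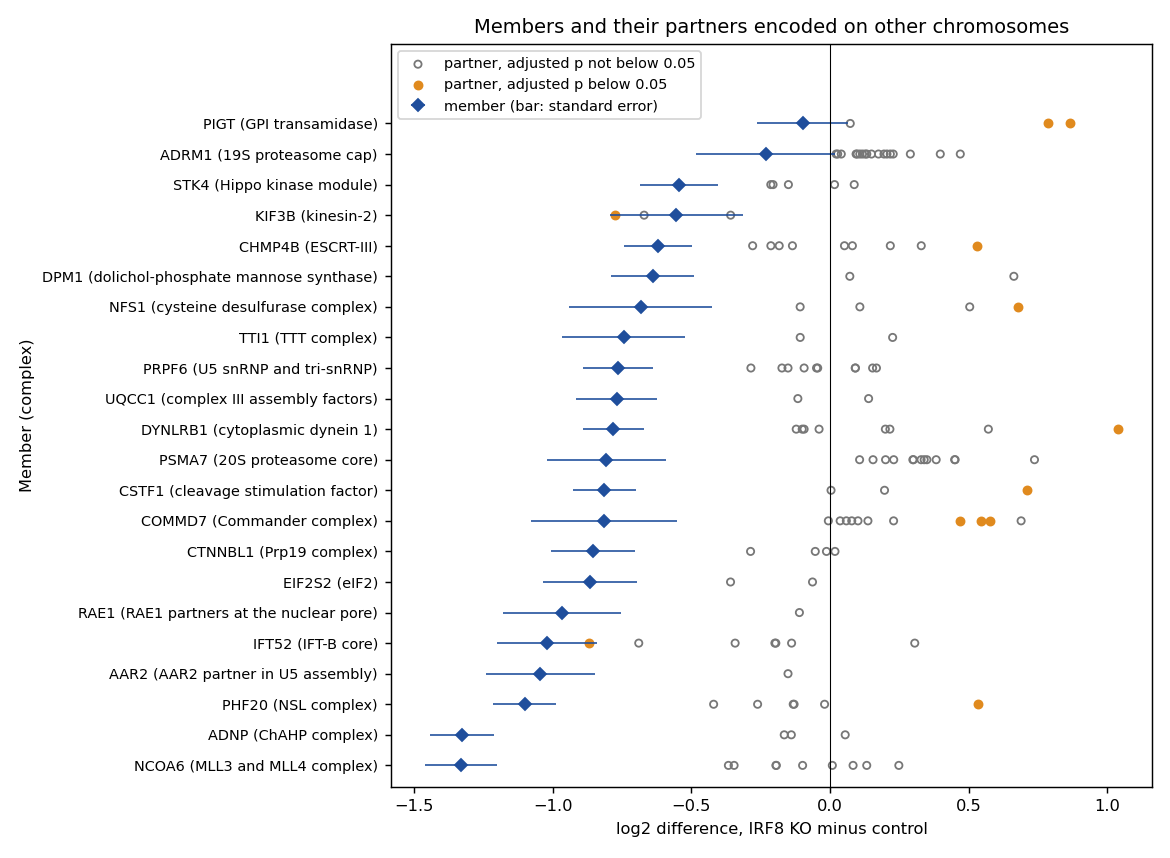
Log2 difference (IRF8 KO minus control, horizontal axis) of 22 chromosome 20 genes (diamonds with standard errors) and of their partners encoded on other chromosomes (circles, filled where the limma adjusted p was below 0.05). Except in kinesin-2, where KIF3B at -0.55 sits above 2 of 3 partners, each diamond lies to the left of all its circles.

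Of 55 paralogs on other chromosomes, 50 could be tested, with a median log2 difference of -0.07. By limma 3 (6%) fell and 4 (8%) rose, beside 9.56% and 8.65% of all tested genes. With the replicate number as a block 5 fell and 6 rose, with no matching share of all tested genes given here. CHD7, a remodeler of the family of CHD6, had 2768, 3803, 2228 and 4646 normalized counts in the control and 7899.6, 7918, 6519 and 10937 in the IRF8 KO libraries (1.34 (standard error 0.25), limma adjusted p = 0.0067), a call that held in all 17 alternative fits. ADA2, which deaminates adenosine outside the cell, had 729, 1559, 641 and 2093 and 5040.5, 6224, 2066 and 3976 (1.85 (standard error 0.45), limma adjusted p = 0.023), with IRF8 KO replicate 3 just under control replicate 4. Its adjusted p reached 0.064 with 1 library left out.

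CPNE3, of the copine family, had 1176, 1179, 1154 and 1362 and 1837, 1936, 1418 and 1549 (0.46, limma adjusted p = 0.047, up to 0.116), and WWP1, a ubiquitin ligase of the family of ITCH, had 1730.4, 1455, 1628 and 1626 and 2339, 1871, 2228 and 2339 (0.44, limma adjusted p = 0.033, up to 0.0925). Lower were KIF3C, as above, and NFATC3, with 8444, 11715, 8401 and 9032 and 6172, 7280.5, 6626 and 6872 (-0.47, limma adjusted p = 0.042, up to 0.104). PSMA8, a paralog of PSMA7, had 27.4, 33.6, 20.4 and 37.7 normalized counts in the control libraries and was at 0 in all 4 IRF8 KO libraries (limma adjusted p = 9.8e-05), at least 9.1-fold lower against a floor of 3 reads per library. The paralogs of the lowest genes that did not pass were PLCG2 (0.21), NFATC1 (-0.34) and the NCOA3 relatives NCOA1 (-0.32) and NCOA2 (-0.22).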

How the data were processed

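RNA-Seq libraries of 4 control and 4 IRF8 KO samples were used. The 2 ChIP-Seq samples and the authors' table of fold changes and p-values were not used here. Per the study's methods, alignment was done with RNA-Star to GENCODE transcripts, reads were counted per gene by featureCounts and then normalized with DESeq2. The strand setting of the counting and the role of each genome build named in the submitters' notes are not given in the sources used here. For each gene, the deposited signal is the read count divided by the authors' size factor of the library. Whole reads were recovered for 100% of the values (tolerance 0.01 reads), and all columns were assigned (0 left out). The columns headed WT, with numbers 1 to 4, were taken as the samples titled control, the only RNA-Seq group beside the knockout. Whether they are cells with the control vector or unmodified cells cannot be told from the heading.

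For the main comparison, log2(normalized count + 1) was fitted in limma 3.58.1 (R 4.3.3), with a trended, robust prior and Benjamini-Hochberg adjustment over 13110 genes with a mean of at least 10. A difference on this scale understates the change of low genes. Scripts were tested on simulated data. Symbols were matched to RefSeq genes (GRCh38.p14) for chromosome, order and span only. The promoters came from the same build. Alternatives covered pseudocount, filter, scaling, edgeR 4.0.16 and DESeq2 1.42.0 on recovered reads, the replicate block, thresholds and leaving out each library. Same-numbered control and IRF8 KO libraries deviated together from their group means (correlations 0.37, 0.48, 0.45 and 0.50 for numbers 1 to 4), which met the criterion of over 0.1 in every pair for fitting a block. Numbers 1 and 3, and 2 and 4, also correlated across groups (0.40 to 0.47), in part above the same numbers, and all other combinations were negative (-0.47 to -0.37), so the deviations separate 1 and 3 from 2 and 4 and do not single out pairs by number. The labels do not say what the numbers mark. The block's value is given where it changes a count by over 1.5 times.

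The genes and the lists of partners, paralogs, segment genes and markers were written from general knowledge with earlier results of these data known. Log2 ratios may be named for any of the 60 genes. Values per library are given for the 5 lowest and the 5 highest, those of the segment, the one with the highest control level per kilobase of genomic span in each role, those whose complex had a called partner, IRF8, and called partners and paralogs. POFUT1 and TOX2 were added after their values were seen.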

Additional observations from a re-analysis of the deposited data

Results flagged for a closer look

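Among the 120 groups of 4 values (60 genes, 2 groups), 7 held a library far from the other 3, by a gap that Dixon's test passes at its 95% critical value. Chance flags about 1 in 20 groups. IRF8 KO replicate 3 stood apart in 4 of them. DDX27 had 3953 normalized counts there against 3227 to 3315 in the other IRF8 KO libraries, and AHCY 9776 against 7555 to 7888. ZMYND8 had 2191 there against 2462 to 2515, and STK4 3423 against 4769 to 4871. KIF3B had 1642 in IRF8 KO replicate 1 against 833 to 902 in the others, one of the genes nearest the centromere described above. Of the control libraries, replicate 4 was low in SRSF6 (15159 against 16818 to 17110) and replicate 1 high in ZHX3 (1959 against 1720.4 to 1736). In these genes except KIF3B, every IRF8 KO value remained below every control value.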

How the results depend on the processing

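The median log2 difference of the 60 genes stayed between -0.87 and -0.82 under all settings other than leaving out a library, and between -0.89 and -0.84 with 1 library left out. Their interquartile range was 0.38, between 0.30 and 0.42 with 1 library left out, and 0.51 within replicates 1 and 3 alone. The number of the 60 called lower at the study's thresholds was 19, between 15 and 21 with 1 library left out, 20 with the replicate block, and 46 at an adjusted p below 0.05 with no fold threshold, a count that ran from 40 to 54 over the alternatives. Counts of partners and paralogs moved more. Partners called lower were 2 with limma, 4 with the replicate block and 5 with DESeq2, and 1 to 3 with 1 library left out. Partners called higher were 10, 19 with the block, 14 with DESeq2, and 5 to 10 with 1 library left out. They were fewest without control replicate 1 or 3, and 6 without IRF8 KO replicate 1. Paralogs called lower were 3, 5 with the block, 4 with DESeq2, and 2 to 4 with 1 library left out. Paralogs called higher were 4, 6 with the block, 6 with DESeq2, and 1 to 3 with 1 library left out. The cause of these moves was not tested. The block changed no other count by over 1.5 times. The replicate term called 0 of the 60 genes in every fit run. The count tests on recovered reads called 20 of the 60 genes lower with edgeR (767 lower and 641 higher over all genes) and 20 with DESeq2 (884 and 720). No scaling moved the median of all genes by over 0.1. The split by replicate number and the counts at an adjusted p across alternatives were added after seeing the data.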
